A study of Mus musculus with 9 samples.

Results

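The urea cycle genes and their periportal neighbours were followed in sorted cells of mouse bile duct organoids. The set holds 9 of the 32137 genes of the count files, chosen by name: Ass1, Asl, Arg1, Arg2, Cps1, Otc, Nags, Hal and Sds. Each was matched by its symbol to 1 row of every count file. The organoids came from 1 male mouse of mixed genetic background with the genotype Axin2CreERT2+/-; R26-LSL-tdTom+/-, and all libraries share that genotype. Expansion took 2 to 4 days and differentiation another 11 days. In the last 24 h every culture received 3 uM dexamethasone, a glucocorticoid, and 500 nM 4-OHT, the tamoxifen metabolite that activates CreERT2 so that cells expressing Axin2, a Wnt target gene, switch on the red reporter tdTom. Rspo1, a secreted protein that strengthens Wnt signalling, was added at 100 ng/ml to part of the cultures.

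Sorted cells of 3 groups were profiled, each with 3 libraries, from passages 5, 6 and 10. The untreated group held tdTom-negative cells of organoids without Rspo1. The Rspo1-negative and Rspo1-positive groups held the tdTom-negative and the tdTom-positive cells of organoids given Rspo1. Untreated tdTom-positive cells were not analysed here, so Rspo1-positive against untreated compares cells that differ in both treatment and reporter. Rspo1-positive against Rspo1-negative compares cells sorted by the reporter from organoids given the same treatment. Those cells also differed in proliferation and dissociation response markers, given below. Rspo1-negative against untreated compares tdTom-negative cells only, so the tdTom-positive cells of treated organoids are not part of it. All libraries came from 1 animal and the labels do not name separate cultures. The p-values below therefore measure the spread between these libraries and say nothing of other animals. That spread may be technical, and with group as the only term it also holds the differences between passages 5, 6 and 10.

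The urea cycle turns ammonia into urea. Nags makes the activator of Cps1, Cps1 fixes ammonia as carbamoyl phosphate and Otc joins that to ornithine in the mitochondrion; Ass1 and Asl then make arginine in the cytosol, and arginase 1 (Arg1) splits it into urea and ornithine. Periportal hepatocytes carry the whole pathway, together with Hal, the histidine ammonia lyase, and Sds, the serine dehydratase. Ass1, Asl and the mitochondrial arginase Arg2 are also used outside the cycle, in arginine and polyamine supply.

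Libraries held between 23423979 and 37351448 counts. Of 10 biliary markers, all had more than 3 counts in some library, and their summed level was 8589 to 10552 CPM (counts scaled to library size) in untreated, 9369 to 10992 in Rspo1-negative and 7624 to 7671 in Rspo1-positive libraries. Single markers went both ways. Against untreated cells, Rspo1-positive cells had Cftr and Sox9 called higher (log2 changes 1.59 and 1.31) and Krt19 lower (-1.06). Rspo1-negative cells had Sox9 called higher (1.05) and Onecut1 lower (-1.30). The Sox9 calls were each lost in 5 of 14 alternative fits and the Onecut1 call in 7. The 10 hepatocyte markers summed to 169 to 545 CPM, most of it Ttr, with Alb at 3.91 to 15.3 CPM and Cyp3a11 at 3 counts or fewer in every library. The cells therefore carried the duct markers of their label, and the term periportal describes where these enzymes act in liver, not these cells. The 6 macrophage markers in the files summed to at least 54.1 CPM in every library: Ptprc and Lyz2 had at most 5 counts in any library, Mrc1 had 6 to 25, and Csf1r, Cd68 and Itgam had 1034 to 1949, 178 to 865 and 172 to 502. The mesenchymal and endothelial lists each summed to at most 1.01 CPM in any library. Proliferation markers (8 genes) moved with the groups: they summed to 108 to 176 CPM in untreated, 256 to 279 in Rspo1-negative and 573 to 763 in Rspo1-positive libraries. Dissociation response genes (8) summed to 505 to 885, 531 to 827 and 735 to 1766 CPM in these groups, and 2 of them, Fos and Fosb, were called higher in the Rspo1-positive cells against the Rspo1-negative ones. Enterocyte markers (8 genes, of which Apoa4, Sis, Cdx1 and Alpi had at most 3 counts) summed to 724 to 920, 621 to 703 and 485 to 539 CPM. The part of these lists in the results below was not tested. One feature, CT010467.1, took 8.89% and 7.20% of the counts of the Rspo1-positive and Rspo1-negative libraries of passage 6.

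The members ranged from well-read genes to genes with almost no reads, with Arg1, Sds and Hal in between. The starts of a gene from each end of that range are shown because Ass1 is the most highly read member and Otc one of the least. RefSeq (GRCm38.p6) promoter windows of 300 bases, from 250 before to 50 after the start, were matched for 4 of the 9 members: Ass1, Otc, Nags and Hal. Printed 5′ to 3′ with every CpG in capitals are the bases upstream of Ass1 at chr2:31470020-31470206 and of Otc at chrX:10252055-10252304, both on the plus strand.
Ass1: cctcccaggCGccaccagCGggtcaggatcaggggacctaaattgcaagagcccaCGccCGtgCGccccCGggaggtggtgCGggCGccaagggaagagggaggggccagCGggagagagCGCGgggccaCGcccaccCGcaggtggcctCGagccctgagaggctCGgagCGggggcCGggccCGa
Otc: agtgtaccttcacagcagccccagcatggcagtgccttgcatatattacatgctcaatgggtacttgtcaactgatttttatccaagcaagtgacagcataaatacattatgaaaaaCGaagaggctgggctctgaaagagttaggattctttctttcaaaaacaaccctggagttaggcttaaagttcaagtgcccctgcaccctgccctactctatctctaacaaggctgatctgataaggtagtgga
The Ass1 stretch of 187 bases held 18 CpGs and the Otc stretch of 250 bases held 1. Over the whole windows the counts were 27 for Ass1, 14 for Nags, 7 for Hal and 1 for Otc, against a median of 7 over 32851 windows, and Nags, with more CpGs than Hal, was read less than Hal (levels below). In all, 5 motifs were searched on both strands: CACGTG (the E-box), AGAACA (a glucocorticoid receptor half-site), CTTTGAT and CTTTGTT (TCF/LEF) and GGGCGG (Sp1), and none of the matches overlapped another motif. Ass1 had 1 CACGTG, a match found in 7.15% of all windows. It begins 36 bases before the RefSeq start but lies past the GENCODE start of the gene at 31470207, where the Ass1 stretch above ends. The bases of chr2:31470225-31470248 are printed with the motif in capitals.
Ass1 E-box: gcccgtcccCACGTGtcccaggtt
Ass1 also had 1 GGGCGG and Nags had 2, a match present in 35.7% of windows. Nags and Hal each had 1 CTTTGAT, present in 3.73% of windows, and Otc had no match to any of the motifs. AGAACA and CTTTGTT, present in 19.0% and 5.85% of windows, had no match in these 4 windows.

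Levels between genes are given as deposited FPKM, which divides counts by gene length and a scaling factor per library. That factor followed a median-based size factor more closely than the total counts. For the Rspo1-negative library of passage 6, relative to the untreated library of passage 5, these were 0.739, 0.743 and 0.892. Ass1 had the highest mean, 45.6 ± 22.9 FPKM (SD, n = 9 libraries), and ranked 1495 of 32137 genes. Arg2 followed at 21.3 ± 10.5 and Asl at 20.2 ± 5.63, ranks 3304 and 3468. Ass1 exceeded Arg2 in 9 of 9 libraries, whereas Arg2 exceeded Asl in only 4 of 9, so the order of Arg2 and Asl is not settled. Arg1 stood at 3.31 ± 1.21 FPKM, below Asl in 9 of 9 libraries. Sds, at 0.341 ± 0.142 FPKM, and Hal, at 0.0539 ± 0.0339, were lower again in 9 of 9 libraries each, with 5 to 21 counts for Sds and 0 to 23 for Hal.

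The mitochondrial entry of the cycle was at or near 0 reads. Nags had 2 counts over all 9 libraries, 1 each in the Rspo1-positive libraries of passages 5 and 10. Otc had 1 count, in the Rspo1-positive library of passage 6, and Cps1 had 1, in the untreated library of passage 10. All are under 3 counts, taken here as the upper limit for a count of 0, and no difference between groups was detectable at this depth. A floor of 3 counts per library is 0.0132 to 0.0227 FPKM for Cps1. In every library the FPKM of Ass1 was at least 799-fold over this floor for Cps1, 431-fold for Otc and 390-fold for Nags. In the libraries with 1 count of a gene the floor is not an upper limit for that gene. Ass1, Asl and both arginases were thus read in every library, and Nags, Cps1 and Otc were at 0 in 7, 8 and 8 of the 9.

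**Figure D1:**
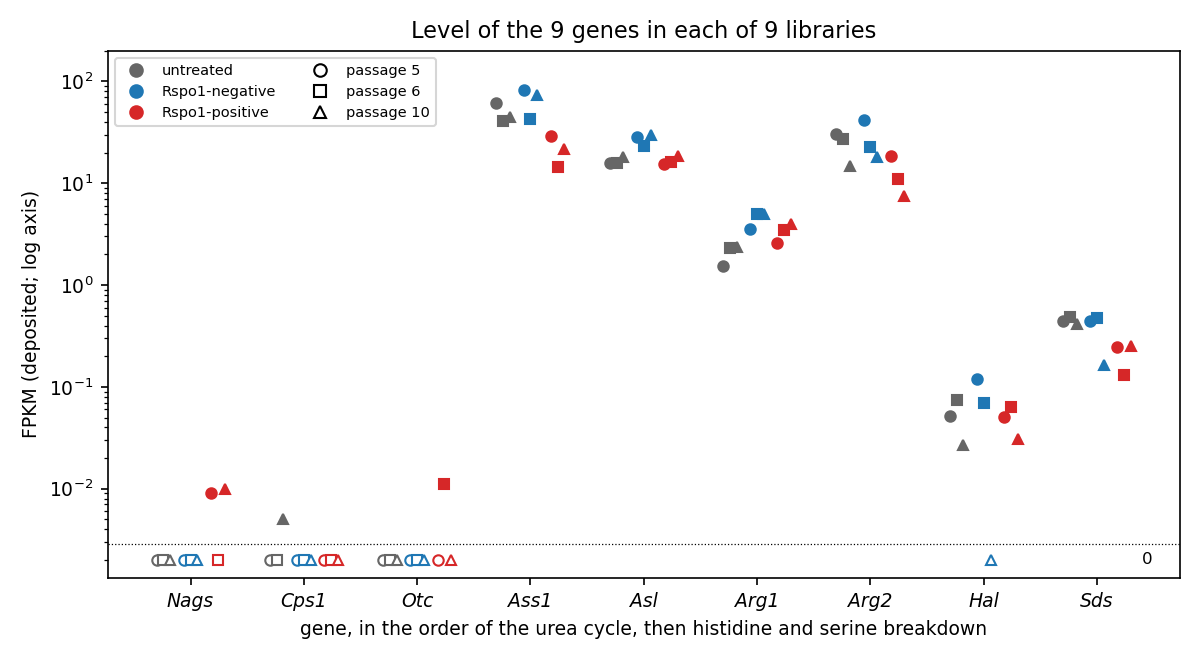
Deposited FPKM (log axis) of the 9 genes, 1 point per library; colour gives the group, shape the passage, and open symbols under the dotted line are libraries listed at 0. Ass1, Asl and Arg2 lie above Arg1, and Nags, Cps1 and Otc have at most 1 count in any library.

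Of the 9 members 6 passed the filter on low counts and were tested among 17011 genes: Ass1, Asl, Arg1, Arg2, Hal and Sds. Levels of 1 gene between libraries are given below as CPM on scaled library sizes, differences were tested by the quasi-likelihood F-test of edgeR, p-values were adjusted by Benjamini and Hochberg's procedure over all 17011 genes, and a call is an adjusted p under 0.05. In bulk cells, fewer cells expressing a gene and less RNA per cell cannot be told apart. The 3 comparisons share groups, so their values for a gene are not independent of each other.

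Ass1, which makes argininosuccinate, was lowest in the Rspo1-positive cells. It measured 106, 70.2 and 77.1 CPM in the untreated libraries of passages 5, 6 and 10, 134, 72.9 and 125 CPM in the Rspo1-negative and 49.9, 24.7 and 37.9 CPM in the Rspo1-positive libraries. All 3 Rspo1-positive libraries lay below all 6 others. Against the Rspo1-negative cells Ass1 fell by 1.56 on the log2 scale (SE 0.29, 2.95-fold lower, edgeR adjusted p = 0.00555), with differences of -1.43, -1.56 and -1.72 within passages 5, 6 and 10. The call held in 6 of 6 fits that left out 1 library, and without the Rspo1-positive library of passage 6 the change was -1.34. Against untreated cells it fell by 1.17 (SE 0.29, 2.25-fold, edgeR adjusted p = 0.0424), and it was lower in 3 of 3 passages (differences of -1.09, -1.51 and -1.02). This call is the less secure of the 2. It was lost in 5 of the 6 edgeR fits without 1 library, those without any untreated library or without the Rspo1-positive library of passage 6 or 10 (log2 changes of -0.94 to -1.29, adjusted p = 0.0526 to 0.167), and in a fit of the 6 libraries alone (adjusted p = 0.0510), while a fit with passage as a block gave -1.21 (adjusted p = 0.000144). Between Rspo1-negative and untreated cells the Ass1 difference was 0.39 (SE 0.28, edgeR adjusted p = 0.357) and did not pass the test.

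Asl, which releases arginine from argininosuccinate, was highest in the Rspo1-negative cells and nearly equal in the other groups. It measured 38.7, 38.6 and 44.9 CPM in untreated, 66.1, 56.6 and 72.6 CPM in Rspo1-negative and 38.0, 39.0 and 46.1 CPM in Rspo1-positive libraries. The 3 Rspo1-negative libraries lay above all 6 others, which overlapped. Asl rose by 0.68 on the log2 scale from untreated to Rspo1-negative cells (SE 0.14, 1.60-fold, edgeR adjusted p = 0.00819) and fell between Rspo1-negative and Rspo1-positive cells (log2 change -0.67, SE 0.14, 1.59-fold lower, edgeR adjusted p = 0.00846). Both calls held in 6 of 6 fits without 1 library. Rspo1-positive and untreated cells differed by 0.01 (SE 0.14, edgeR adjusted p = 0.985). The Asl transcripts have a GC content of 55.5%, and across 17001 genes the log2 changes ran with GC content (Spearman rho 0.496 for Rspo1-negative against untreated, -0.504 for Rspo1-positive against Rspo1-negative, -0.0134 for Rspo1-positive against untreated; genes are not independent replicates). With an offset for GC content and length the Asl changes became 0.37 (edgeR adjusted p = 0.0827) and -0.38 (adjusted p = 0.0744), no longer called, and with passage as a block beside that offset they were called at adjusted p = 0.0263 and 0.0221. Ass1, at 54.7% GC, was still called with the offset against Rspo1-negative cells, at -1.25 (adjusted p = 0.0260).

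The 2 arginases moved in different ways. Arg1, the cytosolic enzyme, measured 2.31, 3.51 and 3.54 CPM in untreated, 5.06, 7.41 and 7.45 CPM in Rspo1-negative and 3.84, 5.09 and 6.02 CPM in Rspo1-positive libraries, from 75 to 215 counts a library. Every library of Rspo1-treated organoids lay above every untreated library. Arg1 rose by 1.09 on the log2 scale in Rspo1-negative against untreated cells (SE 0.27, 2.12-fold, edgeR adjusted p = 0.0185), with differences of 1.11, 1.06 and 1.06 within the 3 passages. The call was lost without the untreated library of passage 5 (0.91, edgeR adjusted p = 0.0639) and without the Rspo1-negative library of passage 10 (1.03, adjusted p = 0.0567). Against untreated cells the Rspo1-positive difference was 0.67 (SE 0.27, edgeR adjusted p = 0.217), called only with passage as a block (0.68, adjusted p = 0.0235, and 0.63, adjusted p = 0.0239, with the GC offset too). Between Rspo1-positive and Rspo1-negative cells the difference was -0.41 (edgeR adjusted p = 0.287).

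Arg2, the mitochondrial arginase, measured 43.8, 39.4 and 21.4 CPM in untreated, 57.4, 32.6 and 25.7 CPM in Rspo1-negative and 26.9, 15.9 and 11.1 CPM in Rspo1-positive libraries. Within each passage the Rspo1-positive library was the lowest, but the groups overlapped, since the untreated and Rspo1-negative libraries of passage 10 lay below the Rspo1-positive library of passage 5. With group as the only term no Arg2 difference was called: -1.10 against Rspo1-negative (SE 0.39, edgeR adjusted p = 0.0597), -0.95 against untreated (SE 0.39, adjusted p = 0.222) and 0.15 between Rspo1-negative and untreated cells (adjusted p = 0.815). With passage as a block Arg2 fell in Rspo1-positive cells by 0.99 against untreated (adjusted p = 0.000974) and by 1.12 against Rspo1-negative cells (adjusted p = 0.000435). The latter was also called with the 6 libraries alone (adjusted p = 0.0498), with no filter (0.000669, and 0.0130 against untreated), with DESeq2 (0.0140) and without the Rspo1-positive library of passage 5 (0.0371). In the authors' deposited tables of DESeq2 results the same comparisons stand at -0.98 (SE 0.18, DESeq2 adjusted p = 1.07e-06) and -1.13 (SE 0.14, DESeq2 adjusted p = 1.34e-13). Those tables hold 15807 genes and their model is not given in the sources used here. Their p-values therefore cannot be set against those of the fits above. The other members there, for Rspo1-positive against untreated cells, are Ass1 at -1.20, Asl at 0.02 and Arg1 at 0.69 (DESeq2 adjusted p = 2.11e-13, 0.972 and 0.0997). The gene overlapping most of the Arg2 exon bases is Vti1b, on the opposite strand, with 19.96% of them. Whether counting used strand is not given in the sources used here.

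Hal and Sds, the periportal ammonia-releasing lyases, had no call in any of the 3 group comparisons. Sds had 19, 19 and 19 counts in untreated, 21, 15 and 5 in Rspo1-negative and 13, 5 and 12 in Rspo1-positive libraries of passages 5, 6 and 10. The Rspo1-positive libraries lay below the untreated ones, at 0.169 to 0.336 against 0.547 to 0.635 CPM, with a log2 difference of -1.07 (SE 0.47, edgeR adjusted p = 0.266). Plbd2, on the opposite strand, covers 21.3% of the Sds exon bases, and without strand the reads of the pair cannot be told apart there. Hal had 9, 12 and 5 counts in untreated, 23, 9 and 0 in Rspo1-negative and 11, 10 and 6 in Rspo1-positive libraries. Its groups overlapped in all 3 comparisons, with log2 differences of -0.08, -0.41 and 0.34 and standard errors of 0.81 to 0.82.

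Counted together, 1 of the 6 tested members was called between Rspo1-positive and untreated cells, Ass1, where 5.21% of all 17011 genes were called, 3.07% higher and 2.13% lower. With passage as a block 3 were called (Ass1 and Arg2 lower, Arg1 higher), against 13.2% of all genes. Between Rspo1-positive and Rspo1-negative cells 2 of 6 were called, Ass1 and Asl, both lower, against 24.3% of all genes called and 9.78% lower; with the block 3 were called, against 38.9%. Between Rspo1-negative and untreated cells 2 of 6 were called, Asl and Arg1, both higher, against 21.9% of all genes and 8% higher. With upper-quartile scaling 49.5% of the genes called in that last comparison were higher, against 36.5% with the main scaling, and with the GC and length offset 50.6% were. The offset also moved the share of higher calls from 59.8% to 40.7% between Rspo1-positive and Rspo1-negative cells. Libraries did not overlap for 3 members between Rspo1-positive and untreated cells (Ass1 and Sds lower, Arg1 higher), against 23.2% of all genes, for 2 between Rspo1-positive and Rspo1-negative cells, against 45.2%, and for 2 between Rspo1-negative and untreated cells, against 36.3%. The median log2 change of the 6 tested members was -0.52, -0.70 and 0.36 in these comparisons, beside -0.01, 0.03 and -0.02 over all tested genes.

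**Figure D2:**
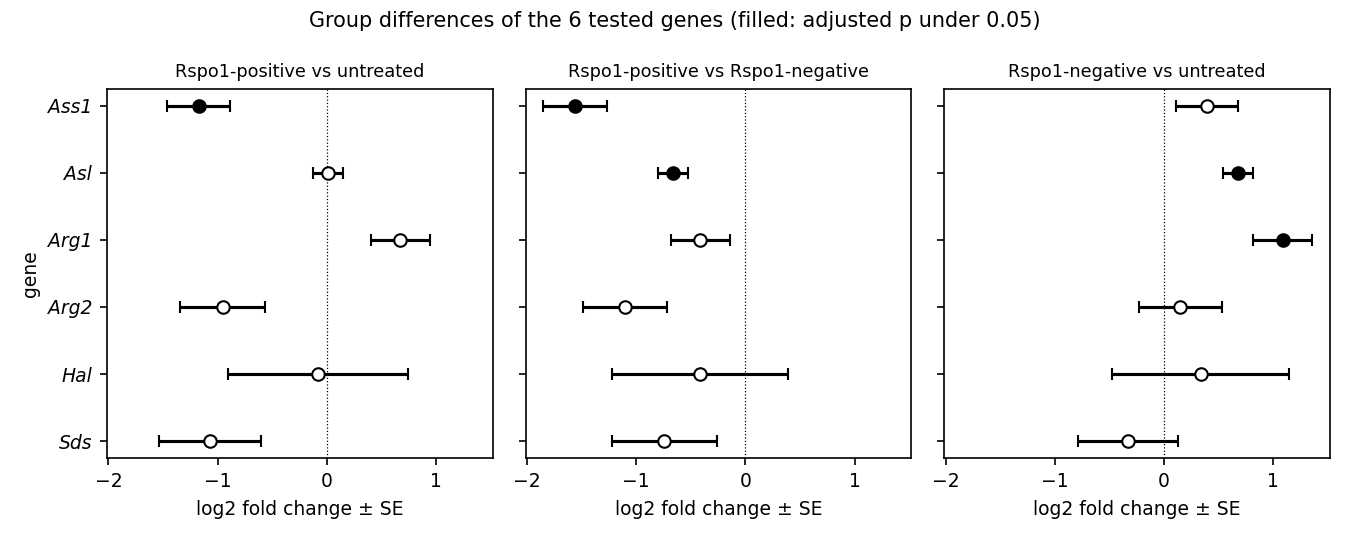
Log2 fold change (x axis) with its standard error for the 6 tested genes in the 3 group comparisons; filled points passed edgeR's test at an adjusted p under 0.05. Ass1 lies below 0 in both comparisons of the Rspo1-positive cells, and Asl was called in both comparisons with the Rspo1-negative cells. Arg1 and Arg2 lie on opposite sides of 0 in Rspo1-positive against untreated cells, where neither was called. In Rspo1-negative against untreated cells both lie above 0, and Arg1 was called while Arg2 was not.

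The balance between the transcripts of these enzymes can be read within a library. The FPKM ratio of Arg1 to Arg2 was 0.051, 0.086 and 0.160 in the untreated libraries of passages 5, 6 and 10, 0.085, 0.219 and 0.280 in the Rspo1-negative and 0.138, 0.310 and 0.524 in the Rspo1-positive libraries. At each passage the ratio was lowest in untreated and highest in Rspo1-positive cells, and in each group it was lowest at passage 5 and highest at passage 10; Arg2 was the higher arginase in all 9 libraries. The FPKM ratio of Ass1 to Asl was 3.91, 2.59 and 2.45 in untreated, 2.89, 1.83 and 2.45 in Rspo1-negative and 1.87, 0.900 and 1.17 in Rspo1-positive libraries. In the Rspo1-positive library of passage 6 alone Asl stood above Ass1. The Rspo1-positive ratios lay below all others except at passage 5, where 1.87 exceeded the 1.83 of the Rspo1-negative library of passage 6. These ratios are a description, with no test, and are of RNA, not of enzyme amount or activity. If counting did not use strand, the Arg2 values may also hold reads of Vti1b.

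**Figure D3:**
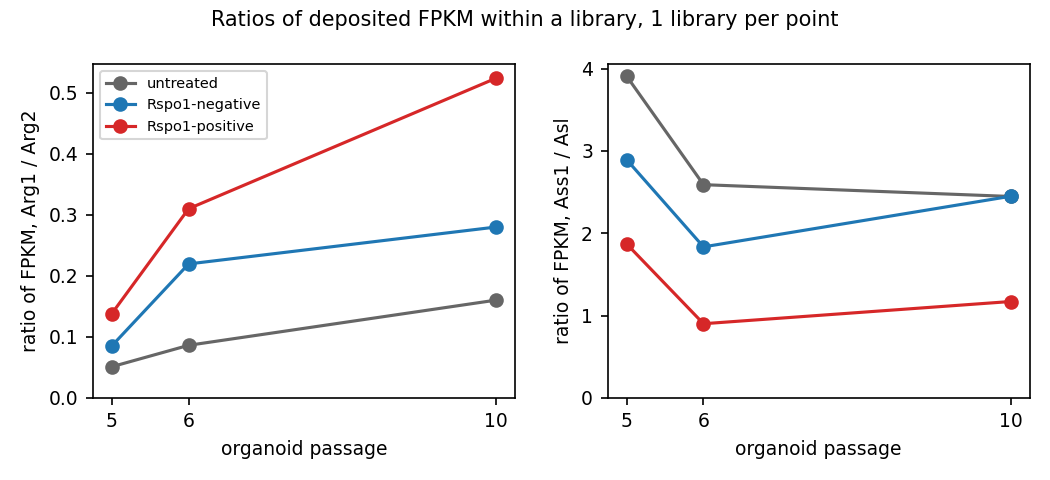
Ratio of deposited FPKM of Arg1 to Arg2 (left) and of Ass1 to Asl (right) within each library, by organoid passage and group, 1 library per point. Arg1 to Arg2 is highest in Rspo1-positive cells at every passage, up to 0.524, and Ass1 to Asl is lowest there, down to 0.900.

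Passage was compared within the 3 groups, in a fit with group and passage. Arg2 fell from passage 5 to passage 10 by 1.16 on the log2 scale (SE 0.15, 2.23-fold, edgeR adjusted p = 0.00135), with differences of -1.03, -1.15 and -1.27 in untreated, Rspo1-negative and Rspo1-positive cells, and from passage 6 to 10 by 0.59 (adjusted p = 0.0313). From passage 5 to 6 its difference was -0.57 (edgeR adjusted p = 0.0696). Ass1 fell from passage 5 to 6 by 0.82 (SE 0.14, edgeR adjusted p = 0.0110), in 3 of 3 groups, and was 0.51 higher at passage 10 than at passage 6 (adjusted p = 0.0425), so passage 6 was its low point. Arg1 was 0.61 higher at passage 10 than at passage 5 (SE 0.17, edgeR adjusted p = 0.0486), higher in 3 of 3 groups, a call lost in all 7 alternative fits (adjusted p = 0.0568 to 0.687). Asl, Hal and Sds had no passage call. In all, 1 of the 6 tested members was called between passages 6 and 5, lower, against 2.49% of all genes called and 1.33% lower. Between 10 and 5, 1 was called higher and 1 lower, against 9.07% of all genes, 4.57% higher and 4.5% lower. Between 10 and 6, again 1 was called higher and 1 lower, against 8.45% of all genes, 4.4% higher and 4.05% lower. Without a whole group, only the Arg2 fall from passage 5 to 10 was called in all 3 fits (edgeR adjusted p up to 0.0258), and without the group term this call too was lost (adjusted p = 0.390). Each group has 1 library a passage, so passage and culture cannot be told apart.

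**Figure D4:**
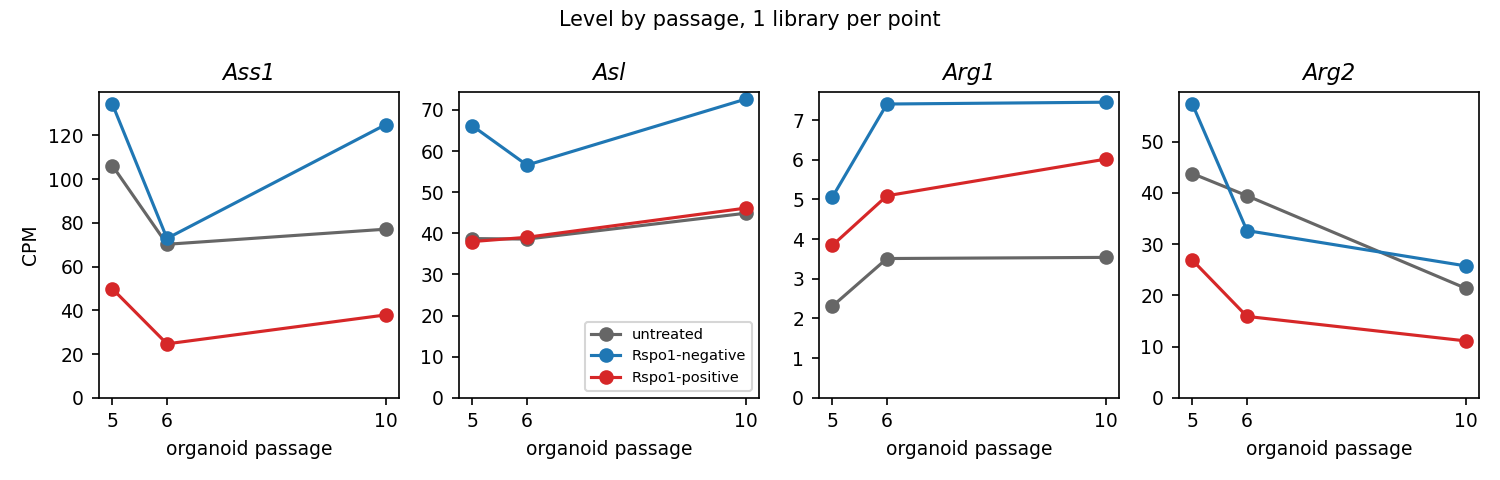
CPM (axis from 0) of Ass1, Asl, Arg1 and Arg2 by organoid passage, 1 library per point, with a line for each group. Arg2 is lowest at passage 10 in every group, Ass1 is lowest at passage 6, and the Rspo1-positive line lies under the others for Ass1 and Arg2.

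Genes whose level most resembled the 2 members of highest mean FPKM were found by Pearson correlation of log2 CPM over the 9 libraries, among 11660 genes; the points share groups and passages, so these are descriptions. Nearest to Ass1 were Hgfac, which encodes the activator of hepatocyte growth factor (r = 0.987), Acox2, a peroxisomal oxidase of bile acid intermediates (0.985), Fbxo2 (0.983) and Lynx1 (0.981). Among the members Ass1 correlated at 0.761 with Arg2, 0.604 with Asl and -0.09 with Arg1. Nearest to Arg2 were Pja1, a ubiquitin ligase (0.975), Car9, a carbonic anhydrase (0.972), Slc2a1, a glucose transporter (0.971), and Gm48780 (0.971). Slc2a1 ranged from 124 to 343 CPM over the libraries and Car9 from 41.3 to 194 CPM.

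Of 9 carriers of urea cycle intermediates 6 were tested, with medians of 0.09, 0.25 and -0.13 on the log2 scale when the Rspo1-positive cells were set against untreated ones, then against Rspo1-negative ones, and when Rspo1-negative cells were set against untreated ones; medians of the lists below follow this order. Over all genes 3.07% were called higher and 2.13% lower in the first comparison, 14.6% and 9.78% in the second and 8% and 13.9% in the third, and the counts of called genes in each list stand beside these shares. In the first comparison 0 were called by edgeR (1 at an unadjusted p under 0.05, 0 by DESeq2, 1 lower with passage as a block), and in the second 0 (2 unadjusted, 1 by DESeq2, 1 higher and 1 lower with the block). In the third 1 carrier fell. This was Slc7a2, a cationic amino acid transporter that imports arginine, at 0.695 ± 0.149 against 1.47 ± 0.234 CPM (SD, n = 3 each; log2 change -1.09, SE 0.33, edgeR adjusted p = 0.0371). The call was lost in 8 of 14 alternative fits, among them the one that offset GC content and length (-0.37, adjusted p = 0.510) and 4 of the 6 without 1 library. With block and offset together 1 carrier was called higher and 0 lower in that comparison.

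Arginine is also drawn off into creatine, ornithine and polyamines, and 17 of the 19 genes listed for these routes were tested. Between Rspo1-positive and untreated cells 2 rose and 0 fell, against 3.07% of all genes higher and 2.13% lower, and the medians of the 3 comparisons were -0.08, -0.26 and 0.09. Gatm, which starts creatine synthesis from arginine, had 71, 43 and 41 counts in Rspo1-positive against 3, 9 and 1 in untreated and 8, 2 and 5 in Rspo1-negative libraries (log2 changes 3.37 and 3.04, edgeR adjusted p = 0.0103 and 0.00725). Only the Rspo1-positive libraries brought Gatm past the filter on low counts. Its p-values and its place among the called genes are therefore not independent of its high level there. Srm, the spermidine synthase, rose in both Rspo1 groups, from 45.7 ± 6.45 CPM in untreated to 70.3 ± 7.07 in Rspo1-negative and 71.1 ± 0.959 in Rspo1-positive cells (SD, n = 3 each; log2 changes 0.62 and 0.64, edgeR adjusted p = 0.0102 and 0.0212). The former was lost when GC content and length were offset (0.25, adjusted p = 0.294) and the latter in 5 of the 6 fits without 1 library (adjusted p up to 0.0944). Between Rspo1-positive and Rspo1-negative cells 2 rose and 4 fell (3 and 7 with passage as a block), among them Smox, the spermine oxidase (-0.53), and Oaz1, the ornithine decarboxylase antizyme (-0.57). Between Rspo1-negative and untreated cells 3 rose (Srm, Oat and Oaz1) and 1 fell (6 and 2 with the block); Oat, which turns ornithine towards proline and glutamate, rose by 0.59 (edgeR adjusted p = 0.0171). The fallen gene was Azin1, the antizyme inhibitor, at -0.78 (adjusted p = 0.00706), and its change was 0.03 with the GC and length offset, as its rise of 0.55 in Rspo1-positive against Rspo1-negative cells became -0.30. With the offset this list had 1 called gene higher and 0 lower in each of the comparisons with the Rspo1-negative cells.

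The 16 genes reported for glutamine, glutamate, proline and ammonia handling were all tested, with medians of -0.10, -0.35 and 0.28. Gpt, an alanine aminotransferase, fell in both Rspo1 groups: 29.4, 22.9 and 31.8 CPM in untreated, 17.9, 16.0 and 16.5 in Rspo1-negative and 12.1, 12.0 and 14.3 in Rspo1-positive libraries, with no overlap (log2 changes against untreated -0.74 and -1.13, edgeR adjusted p = 0.0113 and 0.00309). It was the 1 called gene of these between Rspo1-positive and untreated cells, against 2 higher and 2 lower with passage as a block and 0 higher and 2 lower with DESeq2. Both Gpt calls held in 14 of 14 alternative fits. Between Rspo1-positive and Rspo1-negative cells 3 fell: Gpt2 (-0.69), Aldh4a1 (-0.53) and the mitochondrial deacylase Sirt3 (-0.45); 9.78% of all genes were called lower, and with the block 5 of the list were. The Aldh4a1 and Sirt3 calls were lost in 6 of 6 fits without 1 library (adjusted p = 0.0509 to 0.126). Between Rspo1-negative and untreated cells 1 rose, Got2 (0.52), and 1 fell, Gpt, where 8% of all genes were called higher and 13.9% lower. The genes called higher there numbered 7 with the block and 4 with DESeq2, and the Got2 call was lost with the offset (0.22, adjusted p = 0.432).

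Of 19 genes for histidine, serine, glycine and threonine, 14 were tested; Uroc1, Amdhd1 and Ftcd, which follow Hal in histidine breakdown, had 36, 43 and 0 counts over the 9 libraries and were not. The medians were 0.02, -0.27 and 0.49. Between Rspo1-positive and untreated cells 0 were called by edgeR (1 at an unadjusted p under 0.05, 1 by DESeq2, 3 higher and 2 lower with passage as a block). Between Rspo1-negative and untreated cells 3 rose and 1 fell: Phgdh, the entry enzyme of serine synthesis, went from 129 ± 35.8 to 261 ± 76.5 CPM (SD, n = 3 each; log2 change 1.02, edgeR adjusted p = 0.0132), Sdsl, a homologue of Sds, rose by 0.81 and Gcat, of threonine breakdown, by 0.75, while Dld, a subunit shared by several mitochondrial dehydrogenases, fell by 0.89. The shares of all genes were 8% higher and 13.9% lower. With the GC and length offset none of the rises was called (Phgdh 0.68, Sdsl 0.43 and Gcat 0.42, adjusted p = 0.0980, 0.183 and 0.162), while with passage as a block 8 of the list rose. Between Rspo1-positive and Rspo1-negative cells 1 rose, Dld (0.85), and 3 fell: Gnmt (-1.52), Gcsh (-0.65) and Gcat (-0.52). With the GC and length offset none was called higher or lower in that comparison.

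Among 12 regulators known to act on urea cycle genes, 11 were tested, with medians of -0.14, 0.27 and -0.25. Ppargc1a, a coactivator of fasting metabolism, rose in Rspo1-positive cells to 10.7 ± 0.946 CPM from 4.50 ± 0.707 in untreated and 4.39 ± 1.83 in Rspo1-negative cells (SD, n = 3 each; log2 changes 1.25 and 1.29, edgeR adjusted p = 0.0274 and 0.00980). The first call was lost in 6 of 6 fits without 1 library (adjusted p = 0.0558 to 0.121) and the second when GC content and length were offset (0.47, adjusted p = 0.242). Ppargc1a was the 1 regulator called by this test in Rspo1-positive against untreated cells. Creb1, which carries the glucagon signal to the genome, and Nr3c1, the glucocorticoid receptor through which dexamethasone acts, were lowest in Rspo1-negative cells: Creb1 at 36.9 ± 7.15, 12.8 ± 5.11 and 34.2 ± 4.99 CPM and Nr3c1 at 57.0 ± 10.9, 26.7 ± 5.54 and 48.5 ± 5.05 CPM in untreated, Rspo1-negative and Rspo1-positive cells. Both fell against untreated (-1.53 and -1.09, edgeR adjusted p = 0.00533 and 0.00391) and rose in the comparison of the Rspo1-positive with the Rspo1-negative cells (1.42 and 0.86). In all 4 of 11 rose and 0 fell between Rspo1-positive and Rspo1-negative cells, where 14.6% of all genes were called higher and 9.78% lower, and 0 rose and 4 fell between Rspo1-negative and untreated cells, where 8% were higher and 13.9% lower. With passage as a block 5 rose and 2 fell in the former, and 2 rose and 5 fell in the latter. DESeq2 gave 5 higher and 1 lower in the former, and 0 higher and 4 lower in the latter. With the GC and length offset none was called in the former and 2 fell in the latter. Creb1 and Nr3c1 were not among these 2: their falls became -0.55 and -0.35 (edgeR adjusted p = 0.176 and 0.210). Their rises between Rspo1-positive and Rspo1-negative cells became 0.41 and 0.04 (adjusted p = 0.293 and 0.896). The sign of Sp1 turned with that offset, from 0.60 to -0.22 and from -0.69 to 0.06.

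**Figure D5:**
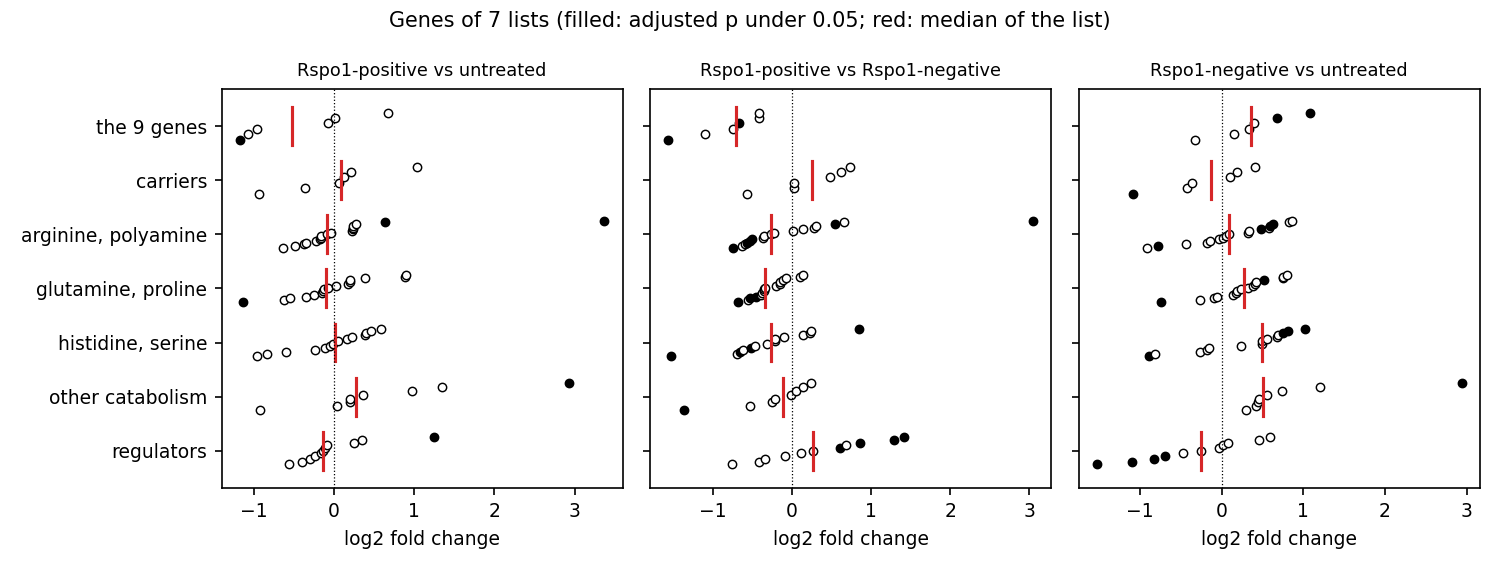
Log2 fold change (x axis) of each tested gene in the 9-gene set and 6 surrounding lists, in the 3 group comparisons; filled points were called by edgeR and the red bar is the median of a list. The points far right of 0 are Gatm, at 3.37 and 3.04, and Cdo1, at 2.93 and 2.94. Gatm passed the filter on low counts only through its Rspo1-positive libraries.

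On GRCm38, Ass1 lies on chromosome 2 at 31470207 to 31520672 on the plus strand, Asl on chromosome 5 at 130011258 to 130029247 on the minus strand, Arg1 on chromosome 10 at 24915221 to 24927484 on the minus strand and Arg2 on chromosome 12 at 79130777 to 79156301 on the plus strand. The exons of Ass1, Asl, Arg1, Cps1, Otc and Hal overlap no other exon in the GENCODE annotation used here, which may not be the one behind the deposited counts.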

How the data were processed

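The members, lists and tests were chosen with earlier results of these data known. Per the submitters' processing notes, reads were handled with Trimmomatic 0.35, FastQC 0.11.2, STAR 2.5.1b, featureCounts and DESeq2 on GRCm38; the annotation and the strand setting are not given in the sources used here. The authors deposited, per library, raw counts and FPKM per gene, and tables with log2 fold changes, p-values, Wald statistics (a score, not used) and mean normalized counts (a signal per gene) from DESeq2; per the file headers these tables hold 15807 genes, 4 of them members (Ass1, Asl, Arg1, Arg2). FPKM only described levels.

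Counts were tested with edgeR 4.0.16 (R 4.3.3), quasi-likelihood F-test, TMM scaling, filterByExpr with a minimum count of 10 and a total of 15, on all 9 libraries with group as the only term; passage contrasts came from group plus passage. Adjusted p-values are Benjamini-Hochberg over 17011 genes. The standard error is the log2 change divided by the square root of F. Log2 CPM used a prior count of 2. Replicate numbers pair the libraries: replicates 1, 2 and 3 are passages 5, 6 and 10 in each group per the labels, and deviations from group means correlated at 0.123 to 0.573 in 9 same-passage pairs and at -0.476 to 0.0826 in 18 others. Libraries of a group, each of another passage, differed by far more than counting noise (chi-square per gene 57.5 to 527.8). None was counted as a repeat, but these values cannot tell passage from separate cultures. On simulated counts for Rspo1-positive against untreated, over 17011 genes, the fit was tested on 200 changed genes. Named list genes were those with up to 4 smallest adjusted p-values called in each list and comparison; 1 gene of the glutamine list is not reported here. Where Gcat had 2 identifiers, that with more counts was used.

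Alternatives were passage as a block, relative log expression (RLE) and upper-quartile scaling, no filter, only the 6 libraries compared, an offset for GC content and length (splines of 5 degrees of freedom), block and offset together, DESeq2 1.42.0, and leaving out each library. Passage fits had RLE, no filter, no group term, DESeq2 and leaving out each group.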

Additional observations from a re-analysis of the deposited data

How the results depend on the processing

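Numbers of genes called by edgeR moved by over 1.5 times under some alternatives. Between Rspo1-positive and untreated cells 886 genes were called, 2247 with the replicate block, 1446 without the filter, 2751 with the replicate block with GC and length offset and 1506 with DESeq2; members called went from 1 to 3 with the replicate block, 2 without the filter, 3 with block and offset, and 0 with only the 6 libraries, where 4 had an unadjusted p under 0.05. Between Rspo1-positive and Rspo1-negative cells 4141 genes became 6624 with the block and 1436 with the offset, where 1 member was called. Between Rspo1-negative and untreated cells 3724 became 6039 with the block, 2299 with only the 6 libraries and 1329 with the offset, where 1 member was called.

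For passage 6 against 5, 423 genes became 0 without the group term (790 at an unadjusted p under 0.05), 1193 without the filter and 851 with DESeq2, and members called were 0, 2 and 2 (0 members at an unadjusted p under 0.05 without the group term). For passage 10 against 5, 1543 became 17 without the group term and 2784 without the filter, and members called were 0 without the group term (2 unadjusted) and 1 each with RLE scaling, without the filter and with DESeq2. For passage 10 against 6, 1438 became 8 without the group term and 2456 without the filter, with 0 members called without the group term (1 unadjusted). Where a fit left out libraries or terms it had fewer samples or more residual spread; for the others the cause was not tested.

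Leaving out each library in turn gave 390 to 899 genes and 0 to 1 members (Rspo1-positive against untreated), 2061 to 4068 and 2 to 3 (Rspo1-positive against Rspo1-negative) and 1800 to 3772 and 1 to 2 (Rspo1-negative against untreated). Leaving out each group gave 110 to 452 genes and 0 to 2 members (passage 6 against 5), 318 to 1169 and 1 to 1 (10 against 5) and 328 to 1023 and 0 to 1 (10 against 6).

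Signs turned as follows. Asl between Rspo1-positive and untreated cells was -0.011 with the offset, -0.014 with block and offset, and ran from -0.080 to 0.083 over the fits without 1 library, being -0.023 and -0.025 without the untreated library of passage 5 or 6. Hal ran there from -0.39 to 0.29, with 0.15 without the Rspo1-positive library of passage 10. Over the fits without 1 library Hal ran from -0.996 to 0.45 between Rspo1-positive and Rspo1-negative cells and from -0.53 to 0.90 between Rspo1-negative and untreated cells, where Arg2 ran from -0.25 to 0.41, with -0.11 without the untreated library of passage 10, and Sds from -0.52 to 0.031. With the offset, alone and with the block, Azin1 turned to -0.30 and -0.30 and Sp1 to -0.22 and -0.21 between Rspo1-positive and Rspo1-negative cells; between Rspo1-negative and untreated cells Azin1 turned to 0.027 and 0.025 and Sp1 to 0.064 and 0.055. Over the fits without 1 group, Asl ran from -0.11 to 0.022, Hal from -0.28 to 0.43 and Sds from -0.26 to 0.12 (passage 6 against 5), and Sds from -0.71 to 0.21 (10 against 6). The block changed no member's call other than those of Arg1 and Arg2 given above. None of the members that turned sign was called in that comparison. Over the members' alternatives, 320 values kept direction and side of the threshold, 28 lost the call and 14 gained it. Hal and Sds had at most 23 and 21 counts in a library, and no difference in Nags, Otc or Cps1 can be read from 2, 1 and 1 counts.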

Other observations

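Of 16 other genes of hepatic amino acid breakdown, 8 passed the filter on low counts; Tat, Hpd, Hgd, Tdo2, Kmo, Kynu, Haao and Bhmt, with 1 to 33 counts over the 9 libraries, did not. Between Rspo1-positive and untreated cells 1 rose and 0 fell, where 3.07% of all genes were called higher and 2.13% lower. Between Rspo1-negative and untreated cells 1 rose and 0 fell, where 8% were higher and 13.9% lower. Between Rspo1-positive and Rspo1-negative cells 0 rose and 1 fell, where 14.6% were higher and 9.78% lower. The gene that rose in both Rspo1 groups was Cdo1, the cysteine dioxygenase that starts cysteine breakdown. It measured 1.72, 3.81 and 2.01 CPM in the untreated libraries of passages 5, 6 and 10, 17.0, 21.8 and 18.9 CPM in the Rspo1-negative and 18.1, 22.9 and 16.3 CPM in the Rspo1-positive libraries. The 6 libraries of Rspo1-treated organoids lay above every untreated one (log2 changes 2.93, SE 0.29, for Rspo1-positive and 2.94, SE 0.29, for Rspo1-negative cells, edgeR adjusted p = 0.00072 and 0.000993). Libraries did not overlap for 23.2% of all genes between Rspo1-positive and untreated cells and for 36.3% between Rspo1-negative and untreated cells. The gene that fell was Cbs, the cystathionine synthase that begins the route from homocysteine to cysteine, at 0.944 ± 0.179 CPM in Rspo1-positive against 2.45 ± 0.788 in Rspo1-negative cells (SD, n = 3 each; log2 change -1.36, edgeR adjusted p = 0.0132).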
